A study of Mus musculus with 6 samples.

Results

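The rows described here are the expressed pseudogenes of genes other than ribosomal protein genes in tumours grown from S-180 cells, a mouse sarcoma line. They are the rows of the deposited table whose symbol ends in -ps, with or without a number, does not begin with Rpl or Rps, and averages at least 0.1 CPM (reads scaled by an effective library size) over the 6 libraries. They were thus selected on the mean CPM of all 6 libraries, and there were 108 such rows among the 20160 rows of the table. Because the limit used the mean of both groups, the levels are a description of what was chosen. The difference between the groups was not itself a criterion, but a low row could pass the limit through the level of a single group. Of 318 pseudogene symbols in the table, 81 belonged to ribosomal proteins and were set aside, and 129 others were under the limit.

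The hosts were BALB/c nude mice, athymic animals with few T cells. The RGLS group was dosed with RGLS ahead of the S-180 cells, and the model group carried S-180 tumours, also injected subcutaneously, without it. RNA of 3 tumour samples per group was sequenced, and all 6 shared cell line and host strain. The series title links RGLS to Ganoderma lucidum spores freed of their coat, and the labels give no dose and no age or sex of the mice. Separate animals are not stated for the replicates, so p-values measure the spread between these samples, which may be technical.

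A pseudogene is a copy of a gene that has generally lost the ability to make the full protein. Processed pseudogenes arose when a messenger RNA was copied back into DNA and inserted elsewhere in the genome, so they have no introns and usually no promoter of their own. Genes with abundant messenger RNA in the germ line, such as those for ribosomal proteins, translation factors, glycolytic enzymes and chaperones, have left the most copies. Because young copies are nearly identical to the parent, a short read from one can be placed on the other.

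A position was found for all but 7 of the 108 members in GRCm38, the assembly of mm10. GENCODE listed 99 of them as genes, on 20 chromosomes, 6 of them on the X chromosome. Of these, 86 were processed pseudogenes, and 83 of the 86 were a single exon. A further 11 were unprocessed copies, 1 was a unitary pseudogene, and 1 (Tes3-ps) was annotated as protein coding. An exon of a gene on the other strand covered at least 50 exonic bases of 11 members. How strand was treated in counting is not stated, so reads from the overlapped bases of those 11 members cannot be told apart from reads of the gene opposite. The overlap was 67 of 6979 exonic bases in Zfp862-ps and 444 of 8634 in Speer5-ps1, but all 1137 in Fgfr3-ps. The largest class was 78 processed pseudogenes with no such exon opposite. In that class 52 lay outside any other gene, 13 in an intron of a gene on the same strand and 13 in an intron of a gene on the other strand.

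The pairs of sequences below show how alike pseudogene and parent were, for a copy that differed little from the parent and had a high read ratio, the most diverged copy and an identical copy. Each is a stretch of 120 coding bases from the GENCODE vM21 transcripts, written 5′ to 3′, with the bases that differ between the pair in capitals. The stretch was chosen so that its number of differences was near the average of the pair.
Oaz1-ps, at chr17:17345957-17346076 on the minus strand, and Oaz1, an antizyme that directs ornithine decarboxylase to degradation, differed at 1 of 684 aligned coding bases:
Oaz1-ps: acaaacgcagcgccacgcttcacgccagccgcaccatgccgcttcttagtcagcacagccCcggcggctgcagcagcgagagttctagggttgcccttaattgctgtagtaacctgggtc
Oaz1: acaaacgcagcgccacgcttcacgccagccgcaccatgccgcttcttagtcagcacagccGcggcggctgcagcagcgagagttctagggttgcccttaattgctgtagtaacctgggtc
Stambp-ps1, at chr8:60793085-60793204 on the plus strand, and Stambp, a deubiquitinating enzyme, differed at 184 of 1096 aligned coding bases:
Stambp-ps1: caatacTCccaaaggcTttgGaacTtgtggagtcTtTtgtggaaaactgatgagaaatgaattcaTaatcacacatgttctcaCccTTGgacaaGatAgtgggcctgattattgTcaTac
Stambp: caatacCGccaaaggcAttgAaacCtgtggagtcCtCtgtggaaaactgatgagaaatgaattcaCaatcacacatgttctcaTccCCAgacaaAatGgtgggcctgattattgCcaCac
Tpt1-ps3, at chr6:99878215-99878334 on the minus strand, was identical to Tpt1, the translationally controlled tumour protein, over all 519 coding bases, and its first 120 bases are shown once:
Tpt1-ps3: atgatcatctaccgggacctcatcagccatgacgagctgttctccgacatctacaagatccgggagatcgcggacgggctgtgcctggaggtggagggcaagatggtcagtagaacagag

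These pairs span the likeness seen over the class. The 78 processed pseudogenes with no exon opposite had a median identity of 98.7% to their closest protein-coding transcript, with 33 at 99% or more, 7 at 100% and 16 under 95%. The lowest was Stambp-ps1 at 73.8%. This identity is from a BLAST alignment of 1227 positions with gaps counted. The number of differing coding bases given above leaves gaps out, so the measures are not the same. The median longest run of bases identical to a coding transcript was 247, and 68 of the 78 had a run of 100 or more. A median of 54.6% of their 50-base words also occurred in a protein-coding transcript. Reads from such stretches cannot be assigned to pseudogene or parent by sequence, so the level of a young copy is uncertain in that respect. Longest runs were 299 for Krt8-ps, 480 for Oaz1-ps, 519 for Tpt1-ps3 and 28 for Stambp-ps1.

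A long open reading frame was present in many copies. Of 85 processed members with a coding match on the same strand, 35 had an open frame of at least 95% of the match's coding length. Another 30 had less than 50%, and the median was 81.2%. The frame was the longest that began at ATG in any forward frame of the copy. It was not checked to be the parent's frame. The frame reached 100% of the length in Tpt1-ps3 and Hspd1-ps3 and 99.8% in Eif4a-ps4, against 64.2% in Krt8-ps, 40.6% in Eef2-ps2 and 23.3% in Stambp-ps1. Low values can also come from a short annotated copy. Krt8-ps is annotated at 945 bases, all of them in the frame, against 1473 coding bases in Krt8. Eef2-ps2 is annotated at 1345 bases, against 2577 coding bases in Eef2. The 30 include Oaz1-ps and Gpx4-ps2, whose parents are themselves decoded through a programmed frameshift (Oaz1) or a stop codon read as selenocysteine (Gpx4), so the length of a single open frame does not measure what these copies kept. An open frame was computed from the sequence only, and no protein was measured.

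The depth behind these rows was shallow. The table held 418102 to 458641 reads per RGLS library and 369453 to 387933 per model library, which is 1.79% to 2.21% of the effective library sizes, and 1 read was worth 0.0390 to 0.0575 CPM. The 108 members together held 13898 reads over the 6 libraries, with a median of 41 reads per member and a fewest of 13. The 8 highest rows held 52.8% of the members' CPM. The median member averaged 0.328 CPM, 86 members averaged under 1 CPM and 7 averaged 5 CPM or more. Markers that define other tissues also differed between the libraries. The 10 skeletal muscle markers summed to 8.45, 9.61 and 8.88 CPM in the RGLS libraries, against 3.34, 2.997 and 3.65 CPM in the model libraries. Of the 3 that were tested, 2 (Acta1 and Des) were called higher. Ckm, the other, had overlapping groups, with 171 RGLS reads and 105 model reads, a scaled ratio of 1.22. The 10 did not all move alike. In 4 of them every RGLS library was above every model library. In 1 (Tnnc2) every RGLS library was below, with 34 RGLS reads and 49 model reads. The 8 fibroblast and sarcoma matrix markers summed to 2.80 to 5.61 CPM in RGLS and 1.48 to 2.24 CPM in model libraries. In 3 of these 8 every RGLS library was above every model library, and the 1 tested (Vim) was not called. The 5 macrophage markers with a row summed to 11.4 to 13.3 CPM in RGLS and 14.3 to 16.2 CPM in model libraries. The 4 endothelial markers summed to 0.175 to 0.654 and 0.0571 to 0.691 CPM. Csf1r alone carried the lower macrophage sum, with means of 10.3 CPM in RGLS and 14.2 CPM in model libraries. The other 4 macrophage markers (Ptprc, Cd68, Lyz2 and Cd14) summed to 1.31 to 2.61 CPM in RGLS and 0.457 to 1.41 CPM in model libraries, with overlapping groups and a ratio of means of 2.12. No marker with a row was at 0 reads in all 6 libraries. Of 4 erythroid markers only Hbb-bs had a row, with 0 reads in the RGLS libraries and 1 read in the model libraries. The part of other cells in the results below was not tested, and in bulk tissue fewer cells of a type and less RNA per cell cannot be told apart.

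**Figure D1:**
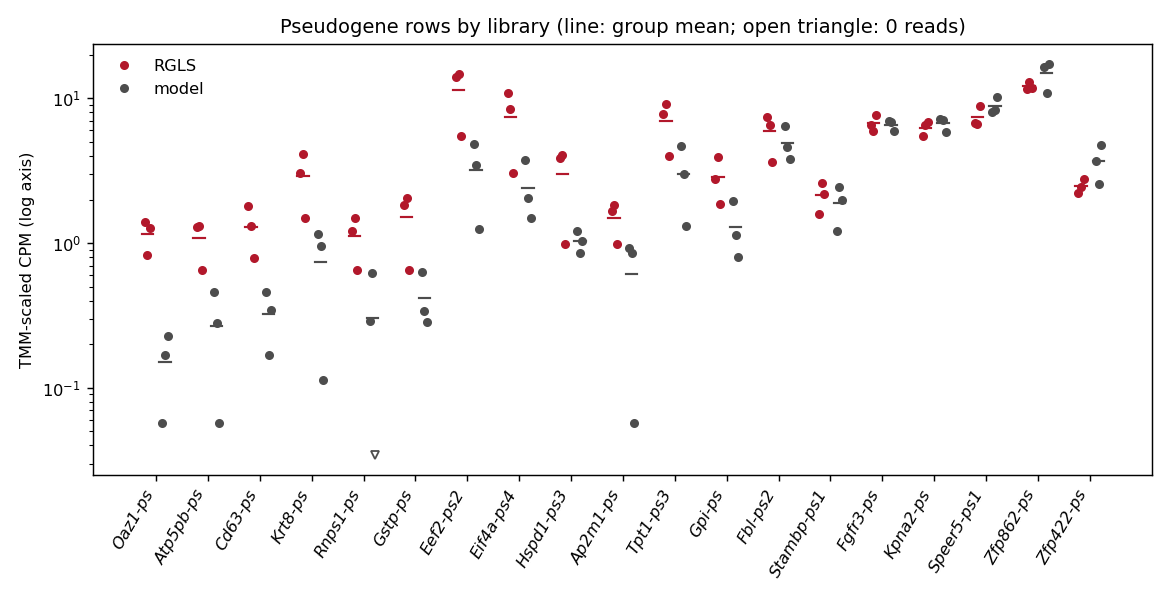
TMM-scaled CPM (log axis) of the named pseudogenes with the most reads in each of the 3 RGLS libraries (red, left) and 3 model libraries (grey, right), with the group mean as a line. The rows run by size of the read ratio, from Oaz1-ps at 7.70 to Zfp422-ps at 0.670, and 1 model library had 0 reads of Rnps1-ps.

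The main question was whether RGLS and model tumours differed in these rows. Of the 108 members, 21 reached 1 CPM in at least 3 libraries and were tested with limma on log2(CPM + 1), and 87 were not. Eef2-ps2 was called higher in RGLS tumours and no member was called lower, at a Benjamini-Hochberg adjusted p under 0.05 over 2319 tested rows. Over those rows, 0.949% were called higher and 0.517% lower. At an unadjusted p under 0.05, 11 of the 21 members were higher in RGLS libraries and 0 were lower, against 6.04% and 17.2% of the 2319 rows. On the recovered reads, edgeR called 3 of 35 members higher and 0 lower, against 1.09% and 0.38% of 3683 rows. DESeq2 was fitted to all 108 members and called 3 higher and 0 lower, against 0.859% and 0.451% of 4656 rows. In limma the log2 fold change was positive for 17 of the 21 tested members, with a median of 0.63, against a median of −0.17 over all tested rows. The members' changes are therefore to be read against a table whose middle lay at −0.17.

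Most members were too low for that test, and the whole reads behind the CPM values give their direction. Over the 108 members the median log2 ratio of scaled reads, RGLS over model, was 1.25, and 93 ratios were above 0. Over all 9406 rows of at least 0.1 CPM the median was 0.07. In 31 members every RGLS library was above every model library, and in 2 (Olfr856-ps1 and Ube2d-ps) every RGLS library was below. Over the 9406 rows these shares were 10.5% and 8.96%, against 28.7% and 1.85% of the members. Low rows could pass the limit through a single group, as Trp53-ps did with means of 0.183 CPM in RGLS and 0.0189 CPM in model libraries. The same limit applied to the 9406 rows. These counts come from members chosen with results known and carry no test.

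The read ratios also vary by class of member. The 78 processed pseudogenes with no exon opposite had a median log2 read ratio of 1.39, with 72 above 0, and 26 had all RGLS libraries above all model libraries, with none the other way. The 5009 rows of the table with no exon opposite were themselves shifted, with a median log2 ratio of 0.44, of which 14.3% lay wholly higher and 4.63% wholly lower. The 11 members with an exon opposite had a median of 0.02, with 6 above 0. Of these, 3 (Got2-ps1, Rtraf-ps and Wsb2-ps) lay wholly higher and 1 (Ube2d-ps) wholly lower. The 4245 table rows with a gene opposite had a median of −0.17, with 6.08% wholly higher and 14.1% wholly lower. The 27 ribosomal protein pseudogenes at the same level had a median of 0.54, with 18 above 0, and 8 of them (29.6%) lay wholly higher and 1 (3.70%) wholly lower, a share wholly higher close to the 28.7% of the members. The gap between classes of members was not tested.

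Summed levels show which libraries carried the difference. The 78 processed pseudogenes with no exon opposite summed to 99.7, 99.4 and 43.8 CPM in RGLS libraries 1, 2 and 3, against 42.6, 33.8 and 17.3 CPM in model libraries 1, 2 and 3. RGLS library 3 lay just above model library 1, so the groups were apart by a narrow gap, and model library 3 was the lowest of the 6. The means were 81.0 ± 32.2 and 31.2 ± 12.8 CPM (SD, n = 3 each), a ratio of 2.59. Member by member, the highest value was in RGLS library 1 for 31, RGLS library 2 for 34 and RGLS library 3 for 4 of the 78, and the lowest was in model library 3 for 40 (tied libraries counted once, for the first of them). The 11 members with an exon opposite summed to 44.8, 45.4 and 44.0 CPM in RGLS libraries, against 51.7, 42.4 and 49.1 CPM in model libraries, and their groups overlapped. All 108 members summed to 134 ± 34.3 CPM in RGLS and 83.8 ± 15.3 CPM in model libraries, with overlapping groups and a ratio of 1.60. The sums of the fibroblast and sarcoma matrix markers ran in the same order of libraries within each group, with 5.61, 3.54 and 2.80 CPM in RGLS libraries 1, 2 and 3, against 2.24, 2.21 and 1.48 CPM in model libraries 1, 2 and 3. Single markers did not all keep that order. Sparc rose over RGLS libraries 1, 2 and 3 (0.234, 0.306 and 0.421 CPM), and Col1a2 over model libraries 1, 2 and 3 (0.115, 0.226 and 0.399 CPM). The muscle markers were at 8.88 CPM in RGLS library 3, within the range of the other RGLS libraries. The part of either tissue in the summed levels was not tested.

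**Figure D2:**
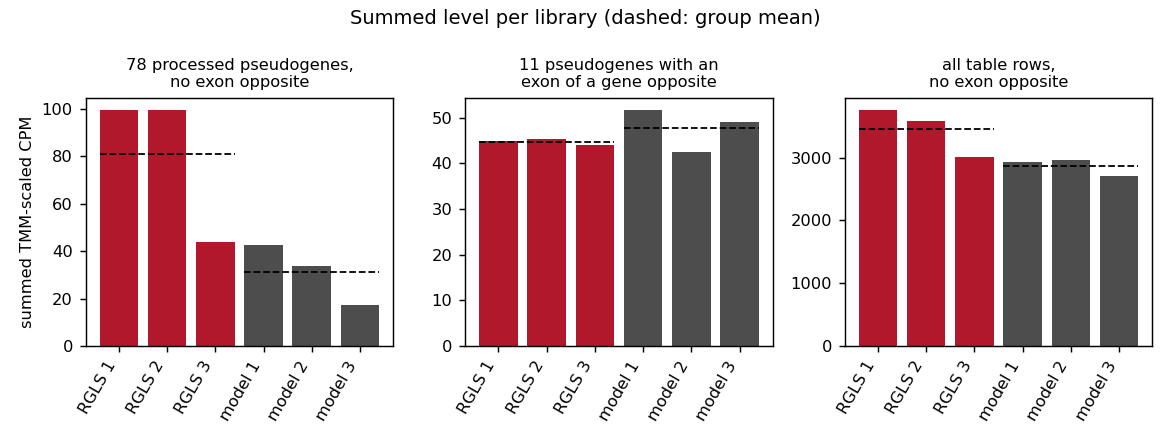
Summed TMM-scaled CPM per library for the 78 processed pseudogenes with no exon opposite, the 11 pseudogenes with an exon of a gene opposite, and every table row with none opposite, with RGLS bars in red left of model bars in grey and the group mean dashed. The first panel runs from 99.7 CPM in RGLS library 1 to 17.3 CPM in model library 3, while the second stays between 42.4 and 51.7 CPM.

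Among copies of translation genes, Eef2-ps2 was the called member. It is a copy of Eef2, the elongation factor that moves the ribosome along the messenger RNA. It had 13.99, 14.7 and 5.47 CPM in RGLS libraries, against 4.83, 3.45 and 1.26 CPM in model libraries. Every RGLS library was above every model library, and library 3 was the lowest in both groups. It averaged 11.4 ± 5.13 and 3.18 ± 1.80 CPM (SD, n = 3 each), with a log2 fold change of 1.57 and SE of 0.33 in limma (adjusted p = 0.0283), which ranked 6th among all tested rows. The reads were 812 and 167, a scaled ratio of 3.65 (exact 95% interval 3.09 to 4.34, counting error only). The call was lost, with limma, without RGLS library 1 (adjusted p = 0.249), without RGLS library 2 (0.160) and without model library 3 (0.112). It was also lost with DESeq2 (adjusted p = 0.134), and held with edgeR.

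Eif4a-ps4, a copy of the RNA helicase Eif4a1 that opens messenger RNA for translation and different from it at 1 of 1218 aligned coding bases, had 10.9, 8.47 and 3.04 CPM in RGLS libraries, against 3.74, 2.04 and 1.48 CPM in model libraries. RGLS library 3 lay within the model range, and the log2 fold change was 1.22 (limma adjusted p = 0.0563). Tpt1-ps3 had 7.83, 9.22 and 4.02 CPM in RGLS libraries, against 4.66, 2.997 and 1.31 CPM in model libraries. Here too RGLS library 3 lay below the highest model library, and the log2 fold change was 1.04 (limma adjusted p = 0.0646). Without RGLS library 3, when limma called 3.75% of 2185 rows higher, both were called, at adjusted p = 0.000332 for Eif4a-ps4 and 0.00832 for Tpt1-ps3. Further copies, chosen after their values were seen, were Btf3-ps1, from a gene for a nascent polypeptide-associated factor, with means of 2.76 and 1.18 CPM in RGLS and model libraries, and Eif5al3-ps, closest to the translation factor Eif5a, with 1.66 and 0.588 CPM. Neither passed the limma test.

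Among copies of chaperone genes, Hspd1-ps3, from the mitochondrial chaperonin, had 3.90, 4.06 and 0.982 CPM in RGLS libraries, against 1.21, 0.848 and 1.03 CPM in model libraries. Its difference lay in RGLS libraries 1 and 2 alone, as RGLS library 3 was within the model range. The log2 fold change was 0.86 (limma adjusted p = 0.104), and 1.30 without RGLS library 3 (limma adjusted p = 0.00116). Hspa9-ps1, from the mitochondrial Hsp70, had 131 RGLS reads and 24 model reads, and Calr-ps, from the endoplasmic reticulum chaperone calreticulin, had 75 and 11. These 2 were under the limit of the test and were chosen after their values were seen, and the Calr-ps groups did not overlap.

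Among copies of metabolic and redox genes, Gpi-ps, closest to the glycolytic isomerase Gpi1, had 2.77, 3.93 and 1.87 CPM in RGLS libraries, against 1.96, 1.13 and 0.799 CPM in model libraries. RGLS library 3 lay just under model library 1, and the log2 fold change was 0.74 (limma adjusted p = 0.09999). Gstp-ps, closest to the glutathione transferase Gstp2, had 1.83, 2.05 and 0.654 CPM in RGLS libraries, against 0.633, 0.339 and 0.285 CPM in model libraries. The groups did not overlap, by a gap of less than 1 read, and the scaled read ratio was 3.69 (exact 95% interval 2.32 to 6.13). Atp5pb-ps, from a subunit of the mitochondrial ATP synthase, had 1.29, 1.31 and 0.654 CPM in RGLS libraries, against 0.460, 0.283 and 0.0571 CPM in model libraries, a ratio of 4.13 (2.32 to 7.91). Prdx2-ps1, from a peroxidase of the peroxiredoxin family and likewise picked once its values were known, had 79 RGLS reads and 8 model reads, a ratio of 7.42, and DESeq2 called it (adjusted p = 0.0414) while edgeR did not.

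Away from the 0.1 CPM limit, the highest read ratio among the members named by rule was that of Oaz1-ps. It had 1.402, 0.830 and 1.26 CPM in RGLS libraries, against 0.0575, 0.170 and 0.228 CPM in model libraries. Its RGLS library 3 was close to RGLS library 1, and its lowest model value was in library 1. The 82 RGLS reads and 8 model reads gave a scaled ratio of 7.70 (exact 95% interval 3.73 to 18.4). It was under the limit of the limma test, and both edgeR (adjusted p = 0.0232) and DESeq2 (adjusted p = 0.0178) called it higher on the recovered reads. A copy of the related antizyme Oaz2, Oaz2-ps, also picked with its values known, had 16 RGLS reads and 1 model read.

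Among copies of structural and trafficking genes, Krt8-ps, from an epithelial keratin, had 3.04, 4.15 and 1.496 CPM in RGLS libraries, against 1.15, 0.961 and 0.114 CPM in model libraries. All RGLS libraries lay above all model libraries, and the log2 fold change was 1.16, with a limma adjusted p of 0.0503, so it was not called. On the recovered reads DESeq2 called it (adjusted p = 0.0317) and edgeR did not. Krt8-ps lies in an intron of Nlrp4e. Ap2m1-ps, from the medium subunit of the clathrin adaptor AP-2, had 1.68, 1.83 and 0.982 CPM in RGLS libraries, against 0.921, 0.848 and 0.0571 CPM in model libraries, a ratio of 2.49 (1.66 to 3.82). Cd63-ps, from the endosomal tetraspanin CD63, had 1.79, 1.31 and 0.795 CPM in RGLS libraries, against 0.460, 0.170 and 0.342 CPM in model libraries, a ratio of 4.11 (2.44 to 7.36). In both, RGLS library 3 was the lowest of its group and still above every model library.

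Among copies of nuclear genes, Rnps1-ps, from a splicing factor of the exon junction, had 1.21, 1.49 and 0.654 CPM in RGLS libraries, against 0.288, 0.622 and 0 CPM in model libraries. RGLS library 3 and model library 2 were within 1 read of each other, and the ratio was 3.71 (2.15 to 6.81). At the edge of the 0.1 CPM limit, Trp53-ps, from the tumour suppressor p53, and Mnd1-ps, from a meiotic recombination factor, each had 13 RGLS reads and 1 model read, and Phf20-ps had 10 and 3. Just outside the limit, Mylf-ps had 14 RGLS reads and 0 model reads, Psenen-ps 9 and 3, and Gnb1-ps2 13 and 0. Ratios from so few reads are imprecise, as the interval for Trp53-ps ran from 1.47 to 415.

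A second set of members had levels near or below those of the model tumours. Zfp862-ps, a unitary pseudogene with the highest mean level, had 11.6, 13.0 and 11.8 CPM in RGLS libraries, against 16.6, 10.97 and 17.4 CPM in model libraries. Speer5-ps1 had 6.78, 6.68 and 8.83 CPM in RGLS libraries, against 8.11, 8.37 and 10.3 CPM in model libraries. In both the groups overlapped, and limma gave log2 fold changes of −0.26 for Zfp862-ps (adjusted p = 0.366) and −0.24 for Speer5-ps1 (adjusted p = 0.399). Each has an exon of a predicted gene opposite, Gm7887 over 67 of 6979 exonic bases and Gm18669 over 444 of 8634.

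Another 4 well-covered members with an exon opposite also had overlapping groups. Fgfr3-ps lies wholly opposite exons of Nvl, a nuclear AAA ATPase, and had 5.94 to 7.71 CPM in RGLS libraries and 5.99 to 6.96 CPM in model libraries. Kpna2-ps, opposite the Mediator subunit Med20, had 5.45 to 6.87 CPM in RGLS libraries and 5.82 to 7.19 CPM in model libraries. Fbl-ps2, from the nucleolar methyltransferase fibrillarin and opposite Tulp4, had 3.65 to 7.48 CPM in RGLS libraries and 3.82 to 6.45 CPM in model libraries. Zfp422-ps, opposite Zfp955b, had 2.22, 2.45 and 2.76 CPM in RGLS libraries, against 3.68, 2.54 and 4.79 CPM in model libraries. In all 4 the groups overlapped, and the log2 fold changes were 0.02, −0.08, 0.19 and −0.40 (limma adjusted p 0.952, 0.802, 0.638 and 0.249). The sign of Kpna2-ps turned to 0.02 when every library was set to the same median, so its direction depends on the scaling.

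Stambp-ps1, a processed copy with no exon opposite, had overlapping levels in both groups. It had 1.60, 2.62 and 2.20 CPM in RGLS libraries, against 1.21, 2.43 and 1.997 CPM in model libraries. The log2 fold change was 0.13 (limma adjusted p = 0.745). It is also the copy with the lowest identity in the class. Over the class, the medians did not follow the order of likeness to the parent. The median log2 read ratio was 1.17 for the 33 copies of at least 99% identity, 1.59 for the 29 from 95% to under 99%, and 1.49 for the 16 under 95%. These classes were chosen after the values were seen and carry no test. By position the medians were 1.36 for the 52 copies outside genes, 1.59 for the 13 in an intron on the same strand and 1.66 for the 13 in an intron on the other strand.

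**Figure D3:**
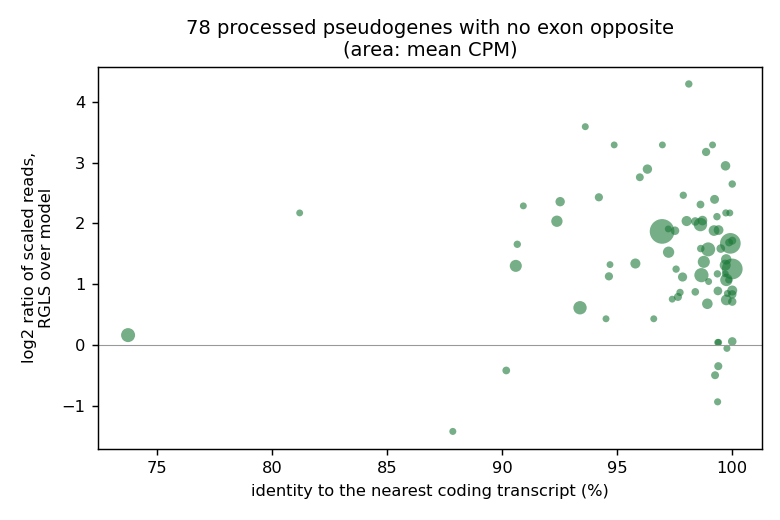
Identity of the 78 processed pseudogenes with no exon opposite to their closest protein-coding transcript (percent) against the log2 ratio of scaled reads, RGLS over model, with point area by mean CPM. Points above 0 (72 of 78) occur at low and at high identity, and Stambp-ps1 at 73.8% lies near 0.

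The second question was how each pseudogene row stood against the row of its parent. The parent had a row for 82 members (81 genes, since Mif-ps4 and Mif-ps6 share Mif), and 26 members had none by symbol. In plain CPM the pseudogene mean was higher in 61 of the 82 pairs. The pseudogene was higher in all 6 libraries in 21 pairs and in 0 libraries in 11. Levels were also compared per kb of exon in 72 pairs with both lengths. A length merged the exons of all transcripts of a gene, which lowers the level per kb of parents with long or many transcripts. Stambp had 10426 exonic bases by this measure, against 1208 for Stambp-ps1. The pseudogene row was higher than the parent row in 64 of the 72, with a median ratio of 8.96 and a range of 0.184 to 4375.5, and it was over 5 times higher in 47. The highest ratio was that of Fgfr3-ps, whose parent had 0 RGLS reads and 1 model read. All exonic bases of Fgfr3-ps, Fbl-ps2 (ratio 682) and Kpna2-ps (ratio 172) lie opposite exons of another gene. The reads of these rows, and so their ratios, cannot be assigned to the pseudogene. Of the parents, 39 rows averaged under 0.1 CPM. The pseudogene was higher in 48 of 52 pairs whose parent had no gene opposite and in 16 of 20 whose parent had one. Only the pseudogene rows had to reach 0.1 CPM to be chosen, so these counts describe the chosen pairs and carry no test.

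Several parents of well-covered pseudogenes were close to 0. Tpt1 had 4 RGLS reads and 5 model reads, against 498 and 157 for Tpt1-ps3, whose level per kb was 290 times that of Tpt1. Eif4a1, paired with Eif4a-ps4 by sequence, had 18 and 8 reads, against 539 and 127. Oaz1 had 3 and 1 reads, Cd63 5 and 6, Rnps1 7 and 2, and Stambp 1 and 2. The level of the parent's messenger RNA in the tumours cannot be read from these rows alone. Other parents were well covered. Eef2 averaged 5.69 ± 2.05 CPM in RGLS and 2.48 ± 1.401 CPM in model libraries, and per kb its level was below that of Eef2-ps2 by a ratio of 4.41. Rows in which the parent was higher per kb were few, and the lowest ratio, 0.184, was that of Ldha-ps2 to Ldha, the lactate dehydrogenase of glycolysis.

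**Figure D4:**
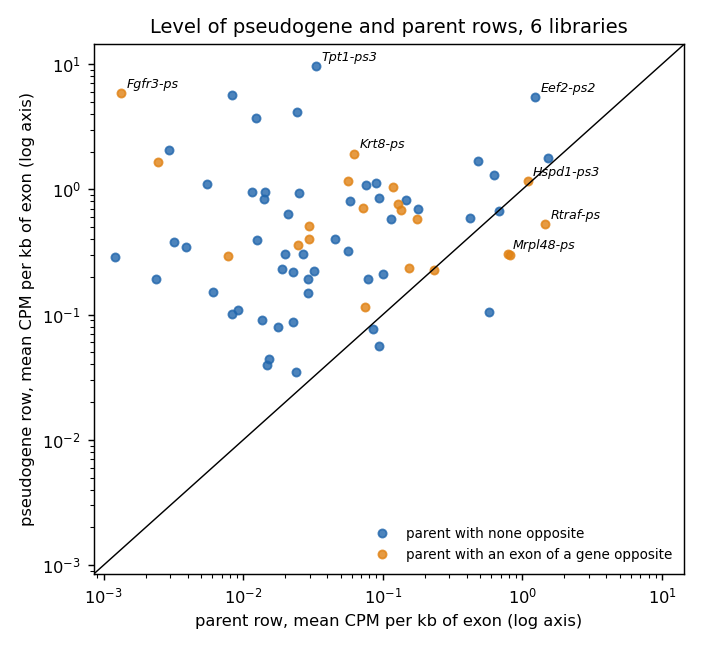
Mean CPM per kb of exon of the pseudogene row against that of the parent row (both log axes), 1 point for each of 72 pairs, coloured by whether the parent has an exon of a gene opposite, with the line of equality. Most points (64 of 72) lie above the line, and Rtraf-ps and Mrpl48-ps are among those below it.

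The change between the groups was also compared within pairs. In 43 pairs with both rows at 0.1 CPM or more, the log2 ratio of pseudogene to parent was computed in each library with 0.1 CPM added to both, so that library scaling largely cancels. The ratio was higher in RGLS than in model libraries in 36 pairs and lower in 7, with a median difference of 1.17. The median was 0.38 with 1 CPM added in place of 0.1, and 0.72 without model library 3. The groups did not overlap in 15 pairs with a higher ratio (34.9% of pairs) and 1 with a lower ratio, Bod1-ps (2.33%). No such share was computed for other pairs of rows, so these counts stand without a background. With 3 against 3 libraries the 2-sided exact permutation test cannot go below p = 0.1, and the smallest adjusted value was 0.269, so no pair passed. The 43 parents had a median log2 read ratio of 0.07. It was 0.17 for the 27 parents with no exon opposite and −0.25 for the 15 with one. The part of this gap in the pair differences was not tested. The summed CPM over all 81 parents was 47.2 ± 5.03 in RGLS and 42.97 ± 1.54 in model libraries.

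The pairs differed in whether the parent moved too. Eef2 had 403 RGLS reads and 130 model reads, a limma log2 fold change of 0.98 (adjusted p = 0.0776). The log2 ratio of Eef2-ps2 to Eef2 averaged 0.93 ± 0.24 in RGLS and 0.35 ± 0.01 in model libraries, so the pair differed by 0.58 between the groups and these did not overlap. Krt8 had 5 RGLS and 9 model reads, and the pair ratio averaged 4.12 ± 0.78 in RGLS and 1.42 ± 2.14 in model libraries, a difference of 2.70. Pcna-ps2, from the sliding clamp of DNA replication and also picked once its values were known, had 63 and 9 reads, against 98 and 97 for Pcna. Mrpl48-ps, from a mitochondrial ribosomal protein, had 26 and 1 reads, against 383 and 381 for Mrpl48, whose exons overlap Rab6a on the other strand. Hspd1 averaged 2.63 ± 0.54 CPM in RGLS and 3.12 ± 1.12 CPM in model libraries and lies opposite Hspe1.

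Of 13 parents tested, Ldha was the 1 called, with 4.36, 4.15 and 1.12 CPM in RGLS libraries, against 1.04, 0.396 and 0.342 CPM in model libraries (log2 fold change 1.31, limma adjusted p = 0.0358). RGLS library 3 was the lowest of the group, as in the summed pseudogenes. Ldha-ps2 had 9 RGLS reads and 5 model reads. In a list of 60 genes known for many processed pseudogenes, 59 had a row and 15 were tested. Ldha was called higher and none lower, and the list summed to 60.3 ± 17.2 CPM in RGLS and 36.4 ± 7.45 CPM in model libraries, with overlapping groups.

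**Figure D5:**
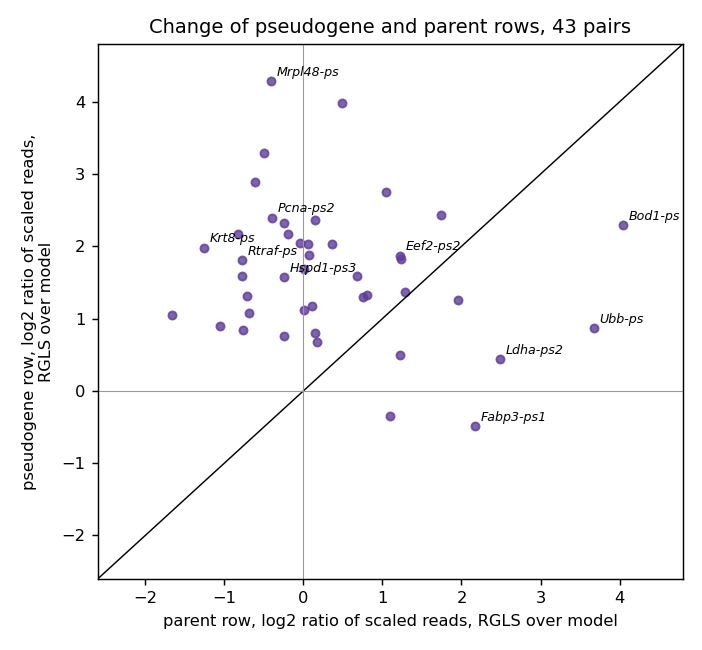
Log2 ratio of scaled reads, RGLS over model, of the pseudogene row against that of the parent row in the 43 pairs with both at 0.1 CPM or more, with the line of equal change. Ldha-ps2, Ubb-ps, Fabp3-ps1 and Bod1-ps are labelled below the line. The ratio computed per library with 0.1 CPM added was higher in RGLS libraries in 36 of the 43 pairs. That measure differs from the pooled reads plotted here, so 36 is not the count of points above the line.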

How the data were processed

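RNA of 3 RGLS and 3 model tumour samples was extracted as total RNA and sequenced from SMARTER kit libraries, per the labels' protocols. Bowtie2, HTSeq and mm10 are named, with no versions, in the submitters' processing notes. Strand setting and annotation are not stated. The authors deposited 1 table of TMM-scaled CPM for 20160 symbols, not divided by length. All values (100%) were whole multiples of 1 read (tolerance 0.001 read), which gave the reads and effective library sizes. Each column was matched to a sample by its title.

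Members, pairs, marker lists and the list of genes known for many pseudogenes were chosen with earlier results of these data known. Positions came from GENCODE vM21 by symbol for 81 members, from RefSeq's GRCm38.p6 symbols with the GENCODE gene at the same place for 18 and from RefSeq alone for 2, and 7 had none. A row was taken as having an exon opposite when at least 50 of its exonic bases lay under exons on the other strand. Pseudogene transcripts were compared with protein-coding transcripts by BLAST 2.17.0. Of the pairs, 13 were added by sequence at 90% identity or more and enter no pair count.

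Groups were compared in R 4.3.3 by limma 3.58.1, 2-sided with a trended prior, after taking log2(CPM + 1), on 2319 rows of at least 1 CPM in at least 3 libraries, with Benjamini-Hochberg adjustment and a threshold of 0.05. Fold changes on this scale understate the change of low rows. Read ratios were scaled by effective library size, with exact 95% intervals that cover counting error only, and 3 reads stood in for a group with none. Named by rule were each called member, the 12 with the highest mean, the 4 largest changes in each direction among other tested members, 3 rows on each side of the limit, and the 6 untested members with most reads whose groups did not overlap, with their parents. Other rows that are named were picked with their values known. Alternatives were other pseudocounts, filters, priors and scalings, a replicate block, DESeq2 1.42.0 and edgeR 4.0.16 run on whole reads, and each library left out. On simulated data with the real means and depths, limma recovered 24 of 100 rows changed 2-fold and 96 of 100 changed 4-fold, with 2 false calls. No 2 libraries were alike within sampling noise, with a chi-square per degree of freedom from 2.75 to 7.15.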

Additional observations from a re-analysis of the deposited data

How the results depend on the processing

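The number of members called higher in RGLS tumours was 1 and depended on most choices, while the number called lower was 0 under every alternative run. It was 0 with a pseudocount of 0.1, with no intensity trend, with every library set to the same median, with quantile normalization, and with the same median within rows with and without an exon opposite (an alternative added after the data were seen). Over all tested rows these settings called 0.388%, 0.474%, 0.431%, 0.302% and 0.733% higher. On the recovered reads, the number of members called higher was 3 of 35 with edgeR and 3 with DESeq2, which was fitted to all 108. It was 2 of 35 members tested with edgeR and TMM recomputed within the table. It was 8 of 66 with a filter of 0.25 CPM and 21 of 108 with no filter. Over all rows these last 3 settings called 1.19%, 1.62% and 1.03% higher. With edgeR the 3 were Oaz1-ps, Eef2-ps2 and Eif4a-ps4, and with DESeq2 they were Oaz1-ps, Prdx2-ps1 and Krt8-ps. With a robust prior it was also 1, but Krt8-ps in place of Eef2-ps2, while 1.47% of all tested rows were called higher. With the replicate number as a block it was 11 of 21, while 4.79% of all tested rows were then called higher and 5.17% lower. Whether the numbers pair the samples is not stated. Same-numbered libraries deviated from their group means with correlations of 0.004, −0.006 and 0.38 (replicate 3). Libraries of unlike number gave −0.30 to 0.33. With 3 libraries per group these correlations cannot settle whether samples were paired or shared a batch. Leaving out 1 library gave 0 to 10 calls, with 10 without RGLS library 3, 5 without model library 1 and 0 without RGLS library 1, RGLS library 2 or model library 3. Of all rows tested, 3.75% were called higher without RGLS library 3 and 2.81% without model library 1. Few rows of any kind were called higher without RGLS library 1 (0.0455%), RGLS library 2 (0.0457%) or model library 3 (0.319%). Over 19 alternatives the log2 fold change of Eef2-ps2 stayed positive, from 0.97 to 2.05, and its call was lost in 10, with adjusted p up to 0.249. Signs turned for members near 0. Kpna2-ps was −0.08 in the main test, 0.020 at the same median, 0.093 with quantile normalization, 0.088 with edgeR and recomputed TMM and 0.095 with the added scaling, and ran from −0.17 to 0.0045 when 1 library was left out, turning without RGLS library 1. Leaving out 1 library, Fgfr3-ps ran from −0.068 (without RGLS library 3) to 0.096 and was also below 0 without model library 3 (−0.038), and Stambp-ps1 ran from −0.045 (without model library 1) to 0.27. The median difference of the pair ratios fell to 0.38 with a pseudocount of 1 and ran from 0.72 to 1.42 when 1 library was left out. With 1 library left out, 17 to 25 pairs had groups that did not overlap, against 16 with all libraries. Leaving out a library cannot undo such a separation in a pair, so this rise says nothing of how stable the count is. The summed ratio of RGLS over model was 1.60 over all 108 members, and for these it ran from 1.48 to 1.84 when 1 library was left out. Over members with no exon opposite it was 2.51 with all libraries. The cause of these shifts was not tested. Depth limits the 87 members that were not tested, since 1 read was worth 0.0390 CPM or more.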
